A study of Mus musculus with 14 samples.

Results

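The 10 genes described here write, copy, remove or protect DNA methylation. They were chosen by name, as the rows Dnmt1, Uhrf1, Dnmt3a, Dnmt3b, Dnmt3l, Tet1, Tet2, Tet3, Tdg and Dppa3 of a table of 24064 genes counted in single mouse oocytes. RNA-seq was performed on single ovulated oocytes to compare control oocytes with oocytes that lost Kdm1a (Lsd1), a histone H3K4 demethylase, during their growth. The controls were 4 wt/wt oocytes of strain C57BL/6J (wt1, wt3, wt4 and wt5) and 1 f/f oocyte of a mixed B6;129 background (C3), which carried the floxed Kdm1a allele on both chromosomes without Cre. The 5 mutants (D1, D2, D3, D4 and D7), labelled mko/mko, were mixed B6;129 and came from Kdm1a f/f females with a Zp3-cre transgene, which acts in oocytes and removes the first exon. C3, D3, D4 and D7 each had 2 libraries of the same oocyte name, which were summed, giving 10 oocytes from 14 libraries. The column of 1 of the C3 libraries is headed Oo3C-DNA, and was taken as the library titled OoC3-DNA, since it has the same characters with 3 and C exchanged and no other column was left for that title. With 1 library per oocyte, without those of the suffix DNA, the same 4 of the 10 genes were called as below (26.7% of all genes). With those of the suffix DNA in place of the other library of the oocyte, Uhrf1 was called too (25% of all genes). Strain, the naming of the libraries and the floxed allele all separate the wt/wt oocytes from the others, so their parts in a difference from the wt/wt oocytes cannot be told apart, and nothing in the labels says whether oocytes came from separate females, so the p-values measure the spread between these oocytes.

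DNA methylation is set up anew in the oocyte as it grows. DNMT3A does this together with DNMT3L, a partner without catalytic activity of its own, whereas DNMT3B is dispensable for it in oocytes. DNMT1 copies methylation onto new DNA strands after replication, and UHRF1 brings it to sites methylated on a single strand. TET enzymes oxidise methylcytosine, TET3 being the family member stored in the egg, and TDG excises oxidised bases. DPPA3 (Stella, PGC7) protects the maternal genome from oxidation after fertilization.

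The RefSeq promoter windows of 3 genes that differed between the groups below are printed to show how unlike their CG content is, since CG is the dinucleotide these enzymes act on. Each runs 5′ to 3′ on the strand of its gene, from 250 bases before to 50 after an annotated start of GRCm38.p6, with every CG in capitals. Which start an oocyte used was not measured.
Dnmt1, start 1, chr9:20959839-20960138, minus strand: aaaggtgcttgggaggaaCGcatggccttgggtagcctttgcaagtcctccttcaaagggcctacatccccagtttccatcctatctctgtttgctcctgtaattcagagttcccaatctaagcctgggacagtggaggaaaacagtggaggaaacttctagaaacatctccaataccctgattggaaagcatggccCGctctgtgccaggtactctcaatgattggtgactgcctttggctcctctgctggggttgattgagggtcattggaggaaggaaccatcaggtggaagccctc
Dnmt1, start 3, chr9:20952574-20952873, minus strand: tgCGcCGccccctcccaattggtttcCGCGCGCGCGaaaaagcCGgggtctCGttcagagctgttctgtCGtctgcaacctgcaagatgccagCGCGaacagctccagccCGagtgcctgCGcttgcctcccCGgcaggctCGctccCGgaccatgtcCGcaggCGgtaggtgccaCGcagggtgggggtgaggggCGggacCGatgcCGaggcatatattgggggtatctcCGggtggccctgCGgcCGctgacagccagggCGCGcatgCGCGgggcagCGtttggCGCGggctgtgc
Dnmt3l, start 1, chr10:78042037-78042336, plus strand: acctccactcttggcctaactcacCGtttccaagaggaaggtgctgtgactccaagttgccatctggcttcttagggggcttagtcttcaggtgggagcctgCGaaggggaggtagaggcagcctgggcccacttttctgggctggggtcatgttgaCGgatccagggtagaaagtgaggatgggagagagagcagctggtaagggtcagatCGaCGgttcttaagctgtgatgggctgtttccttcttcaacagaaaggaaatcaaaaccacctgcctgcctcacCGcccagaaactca
Tet3, start 1, chr6:83441629-83441928, minus strand: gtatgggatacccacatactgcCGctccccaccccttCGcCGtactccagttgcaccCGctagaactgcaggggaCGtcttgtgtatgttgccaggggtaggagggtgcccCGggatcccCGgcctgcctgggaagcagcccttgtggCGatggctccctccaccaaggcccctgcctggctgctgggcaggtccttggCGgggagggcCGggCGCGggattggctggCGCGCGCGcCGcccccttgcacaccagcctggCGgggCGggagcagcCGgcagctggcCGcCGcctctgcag

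The windows of Dnmt1 differed most among the starts of a single gene. Start 1, the most upstream, held 2 CG, fewer than most promoters, as 14.1% of 32841 windows of the same length held fewer. Start 3 held 33 CG, more than 91.4% of windows. A separate upstream start is known to serve the oocyte form of Dnmt1. The 3 windows of Dnmt3l held 6, 4 and 3 CG, against a median of 7 over all windows, and Tet3 held 22. The windows of the other genes held more than the median, with 46, 47 and 18 CG at the starts of Dnmt3a, 30 at Dnmt3b, 17 at Tet1, 57 at Tet2 and 26 at Tdg. Uhrf1 had 12 and 33. An E2F site, searched on both strands as TTTCCCGC, TTTCGCGC, TTTGCCGC or TTTGGCGC, occurred in start 3 of Dnmt1 and start 2 of Uhrf1 and in 2.27% of all windows. No window of these genes held the NOBOX letters TAATTA or TAATTG, which 12.4% of windows hold, and the E-boxes CACGTG (7.15% of windows) and CAGCTG (16.3%) occurred in 3 and 2 of their 16 windows. No member window held 2 of these kinds of motif.

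Kdm1a itself, the check of the labels, was low in the mutants, at 1.62 ± 1.97 CPM (SD, n = 5), against 26.0 ± 12.7 (SD, n = 4) in the wt/wt group and 149 in C3. CPM is the count per 1000000 of the library size, adjusted by TMM. Oocyte totals ran from 1375187 to 1892015 counts in wt/wt oocytes, were 6928548 in C3 and ran from 2016701 to 6926076 in mutants. All 12 oocyte markers were detected, with 7 called higher and 0 lower (14.7% and 11.2% of all genes). Their summed CPM ran from 20050 to 34920 in the wt/wt group and from 47780 to 111300 in mutants and was 56850 in C3. Gdf9 alone was at 6172 to 15480, 27210 to 72060 and 38320 in that order. Markers that overlapped between wt/wt oocytes and mutants included Oosp1 (6024 to 8867 and 3838 to 9199), Kit and Mos. Of 12 cumulus and granulosa markers, 6 were at 0 throughout (Fshr, Amh, Inha, Ptx3, Tnfaip6 and Foxl2), and the sum was 18.8 to 67.4 CPM, 84.1 to 149 and 64.6 in the same order. The markers went both ways. Of the 2 tested, Cyp19a1 was called higher, at 8.52 to 53.1 CPM in the wt/wt group, 79.2 to 147 in mutants and 62.8 in C3, and Nr5a2 was not called, at 8.59 to 11.6, 0.913 to 6.48 and 1.55. Has2, not tested, was at 0.897 to 6.04, 0 to 0.609 and 0. Of 7 blood markers 6 were at 0 throughout, and Cd68 reached at most 6.77 CPM. The part of these marker levels in the results below was not tested. With all oocytes thinned to 1375187 counts, the 4 genes called below were called again, with Uhrf1 added, and 26.4% of all genes. Because values are shares of each library, an oocyte with less RNA in all cannot be told apart from one with more.

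Of the 10 genes, 8 had enough counts to be tested and 4 were called between mutant and control oocytes, which required an adjusted p under 0.05 with a log2 fold change beyond 1 in either direction. Transcripts of Dnmt1, Dnmt3l and Dppa3 were higher in mutant oocytes, and those of Tet3 were lower. Dnmt3a and Dnmt3b, the enzymes that set new methylation, were not called, at 0.874-fold and 1.18-fold. Among all 9198 genes tested 25.9% were called, 14.7% higher and 11.2% lower. The median log2 fold change was 0.71 over the 8 genes and 0.17 over all genes. Scaling by library totals moved the median of all genes to -0.23 and the share of calls that were higher from 56.8% to 36.6%, and still gave Dnmt1 and Dppa3 higher and Tet3 lower.

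**Figure D1:**
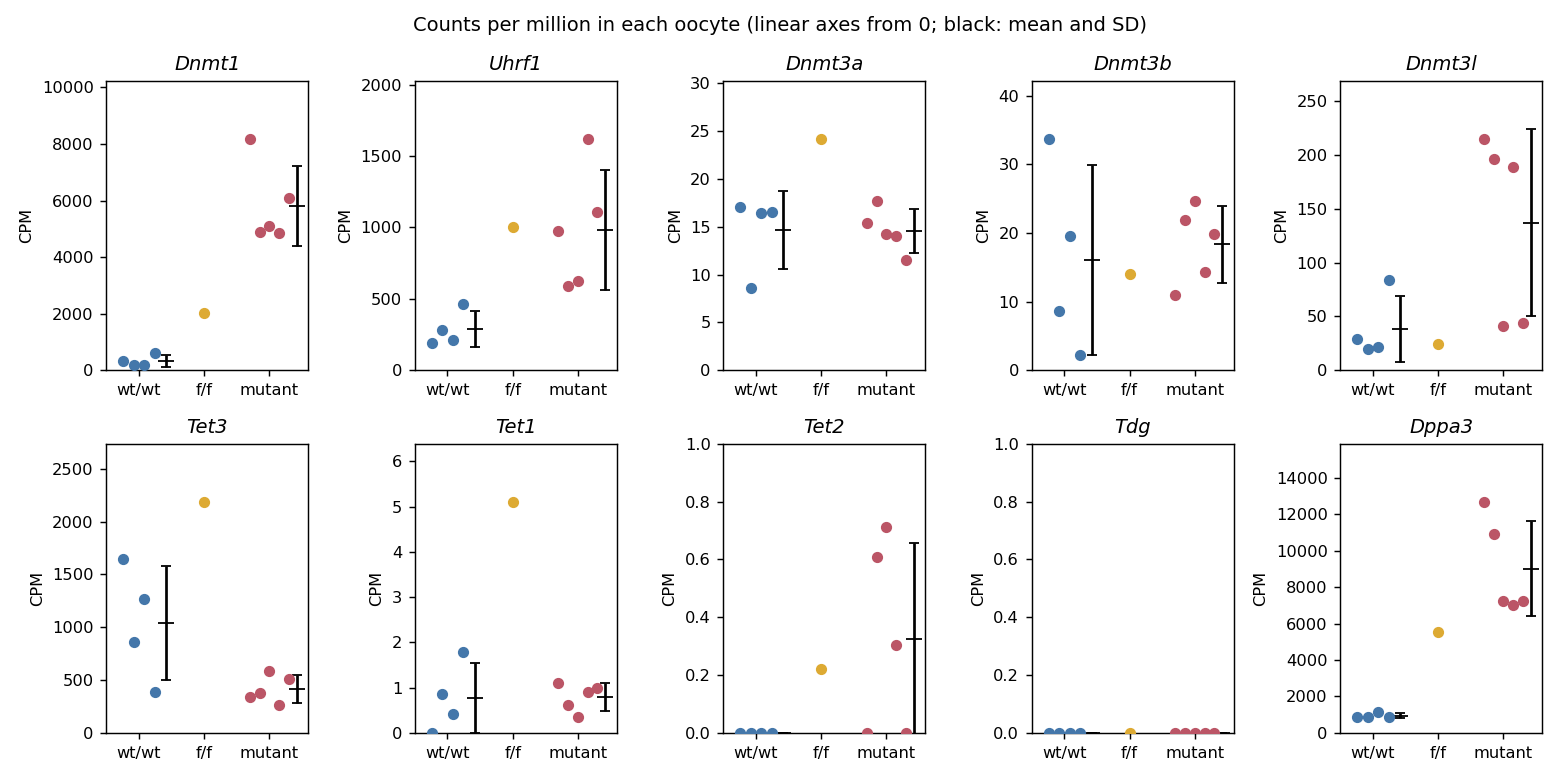
CPM (vertical axes, linear from 0) of each of the 10 genes in each oocyte, with points for single oocytes of the wt/wt, f/f and mutant groups and black bars for the mean and SD of the wt/wt and mutant groups. The 5 mutant points of Dnmt1 (4840 to 8180) and Dppa3 (7020 to 12700) sit above all control points, those of Tet3 (268 to 589) mostly below them, and those of Dnmt3a among them.

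Maintenance methylation rests on Dnmt1 and Uhrf1, and both had higher levels in mutant than in wt/wt oocytes. Dnmt1 lies on chromosome 9 from 20907209 to 20959888 on the minus strand of GRCm38 (mm10). It had 309, 182, 179 and 619 CPM in wt1, wt3, wt4 and wt5, 2030 in C3, and 8180, 4880, 5110, 4840 and 6100 in D1, D2, D3, D4 and D7. Every mutant oocyte was above every control oocyte, as for 8.09% of all genes tested, and the f/f oocyte was above every wt/wt oocyte. The log2 fold change against all controls was 3.13 (SE 0.62, 95% interval 1.82 to 4.45, adjusted p = 0.00261), from the quasi-likelihood test of edgeR, adjusted by Benjamini-Hochberg over all genes, as for every adjusted p of single genes here. It came to 8.77-fold. Without C3 it was 4.17 (adjusted p = 2.53e-05), and against C3 alone, within the mixed background, 1.55 (adjusted p = 0.212). The difference in mean log2 CPM was 4.34 between mutant and wt/wt oocytes, of which 2.85 lay between the f/f and the wt/wt oocytes.

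Uhrf1, on chromosome 17 from 56303321 to 56323486 on the plus strand, had higher levels in mutant than in wt/wt oocytes under TMM scaling, but not than in the f/f oocyte. Its level was 194, 285, 213 and 465 CPM in the wt/wt oocytes, 1000 in C3, and 977, 589, 626, 1620 and 1110 in the mutants in the order above. All mutant oocytes were above all wt/wt oocytes, as for 13.8% of all genes, but C3 lay within the mutant range. Over library totals the mutant and wt/wt oocytes overlapped, since wt5, at 633 per 1000000 counts, was above D2 (479) and D3 (542). Its log2 fold change was 1.19 (SE 0.47, interval 0.20 to 2.18, adjusted p = 0.0691) and was not called. Leaving out C3 brought it to 1.75 (adjusted p = 0.0034), which was called, and that fit called 31.5% of all genes. Against C3 alone it was -0.01 (adjusted p = 0.998). In the last 3 kb of its transcript 22.4% of 49-base stretches, the read length, also occur in the processed pseudogenes Gm5648 and Gm15953, so its count of unique reads is uncertain.

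Within an oocyte, the balance of the pair differed too. The Uhrf1 count was 0.627, 1.57, 1.19 and 0.751 times the Dnmt1 count in wt1, wt3, wt4 and wt5, 0.493 times in C3, and 0.119, 0.121, 0.122, 0.335 and 0.182 times in D1, D2, D3, D4 and D7. The groups did not overlap, nor did they for Dnmt1 by itself. How many of all genes give a ratio to Dnmt1 without overlap was not computed. The mean log2 ratio was -0.24 ± 0.68 (SD, n = 5) in controls and -2.64 ± 0.64 (SD, n = 5) in mutants, a difference of -2.40, with an exact two-sided permutation p of 0.00794, the smallest that 252 groupings allow, and 0.0119 adjusted over the 3 ratios tested. Since Dnmt1 was called in these same oocytes, this p adds no separate evidence. This ratio does not depend on how the oocytes were scaled to each other. It compares counts and not molecules, since the transcripts differ in length.

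The de novo enzymes gave no such difference. Dnmt3a, on chromosome 12 from 3806007 to 3914443 on the plus strand, had 17.1, 8.63, 16.4 and 16.6 CPM in the wt/wt oocytes, 24.2 in C3, and 15.4, 17.7, 14.2, 14.0 and 11.5 in the mutants. The groups overlapped, with a log2 fold change of -0.20 (SE 0.41, interval -1.05 to 0.66, adjusted p = 0.753). The mutant oocytes varied little in Dnmt3a, with a coefficient of variation of 15.5%. These are 20 to 109 counts per oocyte.

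Dnmt3b, on chromosome 2 from 153649450 to 153687730 on the plus strand, was the most uneven of the 3 among wt/wt oocytes. It had 33.7, 8.63, 19.6 and 2.24 CPM there, 14.0 in C3, and 11.0, 21.9, 24.6, 14.3 and 19.9 in the mutants. The lowest value, in wt5, rested on 5 counts. The log2 fold change of 0.23 (SE 0.55, interval -0.93 to 1.40, adjusted p = 0.779) turned to -0.21 under scaling by library totals and to -0.02 without wt5. Of its 49-base stretches 16.9% are shared with its copy Dnmt3c.

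Dnmt3l, the cofactor of DNMT3A, was higher in mutant oocytes but in an uneven way. It lies on chromosome 10 from 78041947 to 78063622 on the plus strand, and 28.7, 19.4, 21.3 and 84.3 CPM were measured in the wt/wt oocytes, 24.4 in C3, and 215, 196, 41.3, 189 and 43.9 in D1, D2, D3, D4 and D7. D1, D2 and D4 were above every control, whereas D3 and D7 were below wt5 and above the other controls. Over library totals D3, at 35.7 per 1000000 counts, was also below wt1 (37.8). The log2 fold change was 1.94 (SE 0.55, interval 0.77 to 3.11, adjusted p = 0.0178), or 3.84-fold. The call was lost at an adjusted p of 0.0552 without wt3 (1.79), 0.0543 without wt4 (1.80), 0.0566 without D1 (1.71) and 0.0656 under library totals (1.40), and the value without wt5 was 2.60. The f/f oocyte was within the wt/wt range in CPM, with a difference of -0.37 in log2 CPM from the wt/wt mean, and the mutant mean was 2.11 above C3. Over library totals C3 was the lowest of all 10 oocytes, at 15.9 per 1000000 counts with a log2 difference of -1.37 from the wt/wt mean. Against C3 alone the log2 fold change was 2.50 (adjusted p = 0.246). Exons of Aire, on the other strand, overlap those of Dnmt3l, and the strand setting of the counting is not given in the sources used here. Aire, looked up after the values of Dnmt3l were seen, was at 0.649 CPM in controls and 7.95 in mutants (log2 fold change 3.48, adjusted p = 0.00425), so reads of the pair cannot be told apart with certainty.

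The ratio of the cofactor to its enzyme was higher in mutant oocytes. Dnmt3l had 1.68, 2.25, 1.30 and 5.08 times the Dnmt3a count in the wt/wt oocytes, 1.01 times in C3, and 14.0, 11.1, 2.90, 13.5 and 3.83 times in the mutants. D3 and D7 overlapped the control wt5. The difference of 1.96 in mean log2 ratio (0.92 ± 0.89 in controls, 2.88 ± 1.08 in mutants, SD, n = 5 each) had an exact two-sided permutation p of 0.0317, adjusted 0.0317. It missed the threshold at 0.0556 by the same exact test without wt1 (1.92), without wt4 (1.82) and without C3 (1.73). Dnmt3l was called in these same oocytes, so the ratio adds no separate evidence.

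**Figure D2:**
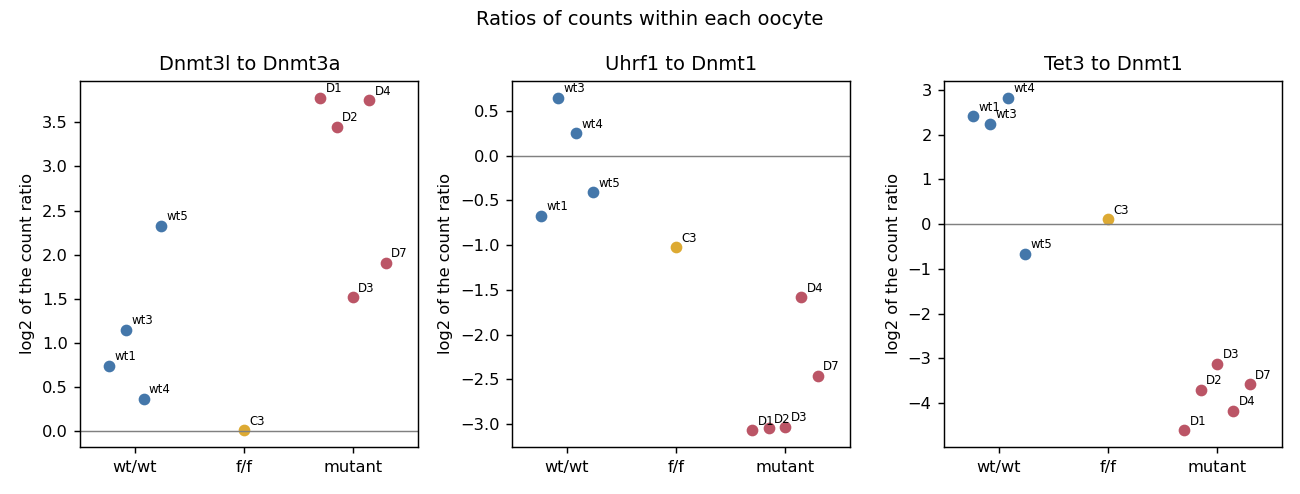
Log2 ratio of counts (vertical axes) of Dnmt3l to Dnmt3a, Uhrf1 to Dnmt1 and Tet3 to Dnmt1 within each named oocyte of the 3 groups. Mutant points lie between 1.52 and 3.78, between -3.07 and -1.58, and between -4.61 and -3.12. They overlap the controls in the first ratio alone, through wt5.

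Among the erasers, Tet3 was the gene detected at depth, and it was lower in mutant oocytes. Tet3 lies on chromosome 6 from 83362373 to 83459084 on the minus strand. It had 1650, 865, 1270 and 391 CPM in wt1, wt3, wt4 and wt5, 2190 in C3, and 336, 375, 589, 268 and 510 in D1, D2, D3, D4 and D7. The mutants were below each control other than wt5, which lay within their range. The log2 fold change was -1.62 (SE 0.43, interval -2.52 to -0.71, adjusted p = 0.0129), or 3.07-fold lower. It stayed called without each oocyte in turn, from -1.82 without wt5 to -1.31 without C3. Against C3 alone it was -2.37 (adjusted p = 0.1). The f/f oocyte was the highest of all 10 in CPM, with a log2 CPM 1.25 above the wt/wt mean. That place rests on the scaling, as over library totals C3, at 1420 per 1000000 counts, was below wt1 (2170) and wt4 (1650) and 0.23 above the wt/wt mean, and wt5 (533) then lay above every mutant.

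Tet1, on chromosome 10 from 62804570 to 62908996, had 0 to 4 counts in each wt/wt oocyte and 1 to 6 in each mutant, and 23 in C3. Its log2 fold change of -1.09 (SE 0.95, adjusted p = 0.417) rests on these few reads. Tet2, on chromosome 3 from 133463679 to 133545139, had 6 counts over all oocytes, none of them in a wt/wt oocyte, and was not tested. Tdg, on chromosome 10 from 82629828 to 82650799, was at 0 in every oocyte, where 3 counts would have been 0.456 to 1.83 CPM depending on the oocyte. Such limits cover counting error alone. Reads were kept only if they aligned uniquely, and 68.7% of the 49-base stretches in the last 3 kb of Tdg are shared with other genes. These are Tdg-ps, Gm9855 and further processed pseudogenes, and Glt8d2, whose exons overlap those of Tdg at the same place. The part of Glt8d2, which by itself does not keep a read from aligning uniquely, was not counted apart. Thus a count of 0 does not show that Tdg RNA was missing. Per kilobase of exon, Tet3 made up 99.5% to 100% of the summed Tet level in each oocyte.

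The counts of Tet3, the stored eraser, and Dnmt1, the maintenance enzyme, stood in a lower ratio in mutant than in control oocytes. Tet3 had 5.33, 4.76, 7.13 and 0.632 times the Dnmt1 count in wt1, wt3, wt4 and wt5, 1.08 times in C3, and 0.0410, 0.0768, 0.115, 0.0554 and 0.0835 times in the mutants. No mutant oocyte reached a control oocyte in this ratio. Dnmt1 by itself also separated mutant from control oocytes, and the share of all genes with such a ratio to Dnmt1 was not computed. The mean log2 ratio was 1.39 ± 1.56 (SD, n = 5) in controls and -3.84 ± 0.57 (SD, n = 5) in mutants, and the difference of -5.22 had an exact two-sided permutation p of 0.00794, adjusted 0.0119. With the wt/wt oocytes alone it was -5.54. Both genes were called in these same oocytes, so this p adds no separate evidence. In wt5 and C3 the ratio lay between the other wt/wt oocytes and the mutants.

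Dppa3, the protector of maternal methylation, had the highest level per kilobase of exon of the 10 genes in every group. On chromosome 6 from 122626410 to 122630272 on the plus strand, it had 847, 854, 1150 and 895 CPM in wt1, wt3, wt4 and wt5, 5560 in C3, and 12700, 10900, 7250, 7020 and 7220 in D1, D2, D3, D4 and D7. The wt/wt oocytes lay close together, at 937 ± 144 (SD, n = 4), and every mutant oocyte was above every control, as for 8.09% of all genes. The log2 fold change was 2.27 (SE 0.55, interval 1.11 to 3.44, adjusted p = 0.00817), or 4.84-fold. Without C3 it was 3.30 (adjusted p = 2.09e-05). Against C3 alone it was 0.72 (adjusted p = 0.514), and most of the step from the wt/wt oocytes, 2.58 of 3.23 in log2 CPM, was also present in the f/f oocyte. With trends along GC content and transcript length taken out of each oocyte, it was lowered to 1.68 (adjusted p = 0.0576), which ended the call. Of the 49-base stretches of Dppa3, 18.5% also occur in Dppa3-ps, Gm15620 or Gm47576.

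**Figure D3:**
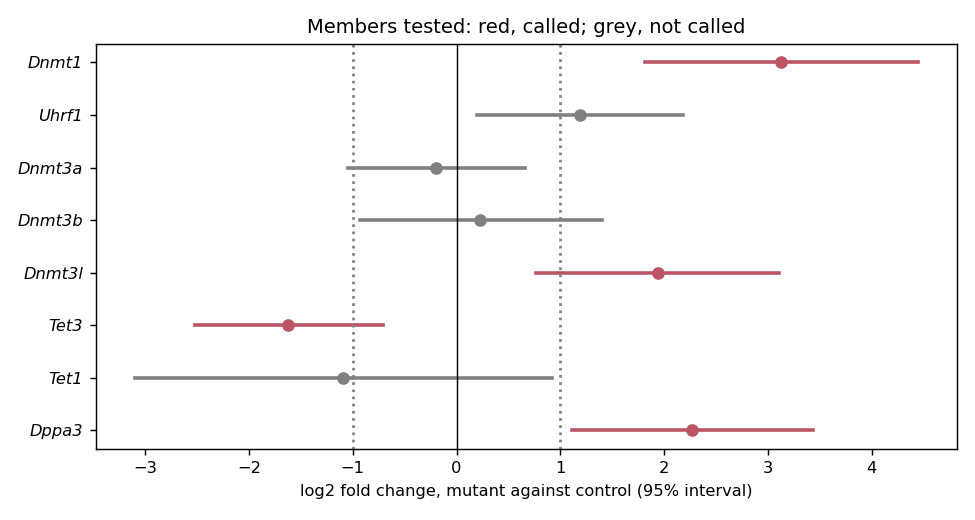
Log2 fold change between mutant and control oocytes (horizontal axis, log2 scale) with 95% intervals for the 8 genes tested, 4 called ones in red and 4 others in grey, with dotted lines at the threshold of 1 in either direction. Dnmt1 (3.13), Dppa3 (2.27) and Dnmt3l (1.94) lie to the right and Tet3 (-1.62) to the left, whereas the intervals of Dnmt3a, Dnmt3b and Tet1 include 0.

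The f/f oocyte shares the floxed allele and the mixed background with the mutants and differs from them in the lack of Cre, and its place varied from gene to gene. Relative to the wt/wt mean, its log2 CPM was higher by 2.85 for Dnmt1, 2.58 for Dppa3 and 1.88 for Uhrf1, and the mutant mean was higher by 4.34, 3.23 and 1.75. For Dnmt3l and Tet3 it did not lie on the mutant side. The values were -0.37 in f/f and 1.74 in mutants for Dnmt3l, and 1.25 and -1.20 for Tet3. Over library totals the f/f differences were 1.82 for Dnmt1, 1.55 for Dppa3, 0.85 for Uhrf1, -1.37 for Dnmt3l and 0.23 for Tet3, beside 3.73, 2.62, 1.14, 1.14 and -1.81 in mutants. These differences of a single oocyte carry no replicate error. When it was the lone control, its spread being taken as that of the mutants, edgeR called 0 of the 10 genes and 3 of 8811 genes in all (0.034%). At an unadjusted p under 0.05, which 19% of all genes met, the members counted were 4 (Dnmt1, Dnmt3l, Tet1 and Tet3), and DESeq2 called 1, Tet3, and 7.17% of all genes.

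**Figure D4:**
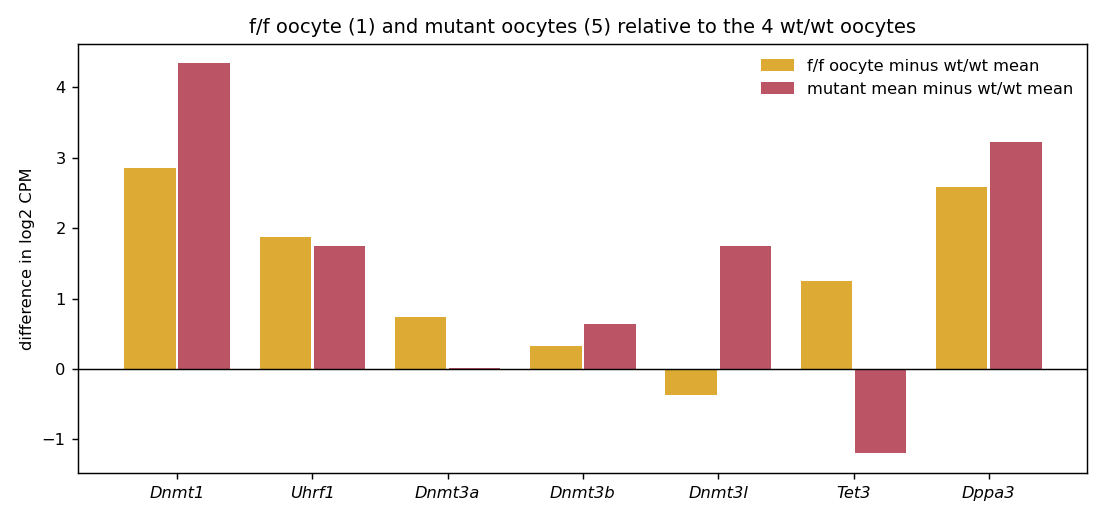
Difference in log2 CPM (vertical axis) from the mean of the 4 wt/wt oocytes, for the single f/f oocyte (yellow bars) and for the mean of the 5 mutant oocytes (red bars). Both bars point upwards for Dnmt1 (2.85 and 4.34) and Dppa3 (2.58 and 3.23), and in opposite directions for Dnmt3l (-0.37 and 1.74) and Tet3 (1.25 and -1.20, where library totals give 0.23 and -1.81).

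The order of the genes was compared per kilobase of merged exons. In wt/wt oocytes Dppa3 led at 1050 ± 162 CPM per kb (SD, n = 4), followed by Uhrf1 at 67.9 ± 29.0, Tet3 at 62.6 ± 32.4 and Dnmt1 at 43.7 ± 28.0, whose ranges overlapped. Dnmt3l came next at 12.9 ± 10.3, then Dnmt3b at 3.14 ± 2.70 and Dnmt3a at 0.882 ± 0.243, again with overlapping ranges for the last pair, and Tet1 at 0.0496. In mutant oocytes the levels were 10100 ± 2919 for Dppa3, 789.5 ± 191.6 for Dnmt1, 231 ± 98.6 for Uhrf1, 45.8 ± 29.0 for Dnmt3l and 24.9 ± 7.84 for Tet3 (SD, n = 5 each). Thus Dnmt1 stood after Dppa3, and Dnmt3l and Tet3 overlapped. Dnmt1 made up 67.0% to 73.9% of the summed level per kilobase of the 4 Dnmt genes in wt/wt oocytes, 95.7% in C3 and 90.3% to 97.7% in mutants. Since the cDNA reaches no further than 3 kb from the 3′ end of a transcript, lengths were also capped there, and the wt/wt order became Dppa3, Tet3 (348), Dnmt1 (107) and Uhrf1 (96.4). In mutants the cap put Tet3 (138.5) before Dnmt3l (45.8), after Dppa3, Dnmt1 (1941) and Uhrf1 (328), so the order of Tet3 and Dnmt3l rests on the length used.

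Over the 10 oocytes, Dnmt1 and Dppa3 varied together in log2 CPM (Pearson r = 0.955, given as a description). Dnmt1 and Uhrf1 gave 0.870 and Dnmt3l and Tet3 -0.852, while Dnmt3a reached at most 0.33 with Dnmt1, Uhrf1, Dnmt3b, Dnmt3l, Tet3 or Dppa3. Among 5019 genes with a mean of at least 10 CPM, those most like Dnmt1 were H3f3a (0.980), Arf5 (0.979) and Ppp4c (0.977). Those most like Dppa3 were Ppp4c (0.992), Cep85 (0.992) and Acin1 (0.985). Tmem248 (0.979), Calr (0.974) and Cmc1 (0.969) were most like Dnmt3l, and Tgds (0.969), Atp13a3 (0.958) and Psip1 (0.958) most like Tet3. The points share the groups, the scaling and the libraries.

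The machinery that works with these genes was read from 55 further genes in 6 lists, of which 43 were tested. In all 9 were called (20.9%, against 25.9% of all genes), 3 higher and 6 lower, with a median log2 fold change of 0.02. Among 7 histone enzymes tested, 2 were called, both lower (28.6%, against 25.9% of all genes called either way and 11.2% called lower). KDM1B, the H3K4 demethylase that oocytes need for maternal imprints, had its transcript at 354 ± 83.9 CPM in the wt/wt group, 908 in C3 and 175 ± 46.7 in mutants (log2 fold change -1.41, SE 0.38, adjusted p = 0.0141). Its mutant values lay below every control value, as for 8.09% of genes, although D7 (252) was just above wt4 (251) under RLE scaling (by the median ratio to a common reference), and without C3 the log2 fold change was -1.01 (adjusted p = 0.0204). Setd2, which encodes the H3K36 methyltransferase whose mark guides oocyte methylation, was at 203 ± 34.7, 370 and 102 ± 41.7 CPM (-1.21, adjusted p = 0.0281), likewise without overlap. The call of Setd2 was lost without wt3, C3, D1 or D4 in turn (adjusted p from 0.0497 to 0.0752), and without C3 it was the fold change of -0.98 that missed the threshold.

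Of 6 cofactors of the writers tested, 2 were called, both lower (33.3%, against 25.9% of all genes called either way and 11.2% called lower). They were Hells, a chromatin remodeller (-1.32, adjusted p = 0.02), and Zbtb24, a zinc finger regulator of its partner Cdca7 (-1.41, adjusted p = 0.0229). Zbtb24 was below every control in each mutant, as were 8.09% of all genes, and Hells overlapped, though not over library totals. Of 14 erasers and base excision repair genes tested, the DNA glycosylase genes Neil3 (1.36, adjusted p = 0.0142) and Neil2 (2.07, adjusted p = 0.0491) were higher, a share of 14.3% that is near the 14.7% over all genes. Of 5 readers of methylated DNA edgeR called 0, although 1 of them, Mbd4, was under an unadjusted p of 0.05 (39.4% of all genes) and was called by DESeq2 (30.5%). Zfp445, a zinc finger protein that protects imprints, was called higher, at 2.07 (adjusted p = 0.0436). It was the single call among 4 protectors (25%, against 25.9% of all genes called either way and 14.7% called higher). Of 8 genes for the supply of methyl groups and TET cofactors 2 were called, both lower (25%, against 25.9% of all genes called either way and 11.2% called lower). These were Idh1, whose enzyme makes the 2-oxoglutarate that TET proteins use (-1.88, adjusted p = 0.00987), and Ahcyl1, a relative of S-adenosylhomocysteine hydrolase (-1.48, adjusted p = 0.0206).

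Idh1, Kdm1b and Neil3 were called without each of the 10 oocytes in turn, 3 of the 9. Calls of the others were lost at least once, that of Ahcyl1 without wt4 (adjusted p = 0.0582), that of Zbtb24 without wt4 or D7 (0.0507 to 0.0695) and that of Hells without wt1, wt4 or D1 (0.052 to 0.0532). With GC and length trends removed, the calls of Setd2, Hells and Neil2 were lost. With an oocyte left out, Neil2 stayed called in 1 of the 10 fits, without D7, and Zfp445 in 2, without C3 (3.39) or D7. The f/f oocyte stood with the mutants in some of these genes. Its Ahcyl1 level of 10.4 CPM lay within the mutant range of 6.70 to 11.0, and -1.34 of the mean log2 CPM difference of -1.59 between mutant and wt/wt oocytes was present in it. Its Zfp445 level of 11.1 CPM lay within the mutant range of 6.98 to 22.1, with 2.64 of a difference of 2.97. Idh1 was between the group means (-1.03 of -2.12), as was Neil3 (0.86 of 1.49), whereas Hells (0.46 against -1.15), Zbtb24 (0.08 against -1.30) and Neil2 (-0.15 against 1.38) were near the wt/wt mean in C3 or on its other side. Over library totals the values in C3 were lower, at -0.91 for Zbtb24, -0.56 for Hells and -0.17 for Neil3, and its Ahcyl1 level and that of Idh1 (19.6 per 1000000 counts, below the 25.7 of D7) lay within the mutant range.

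**Figure D5:**
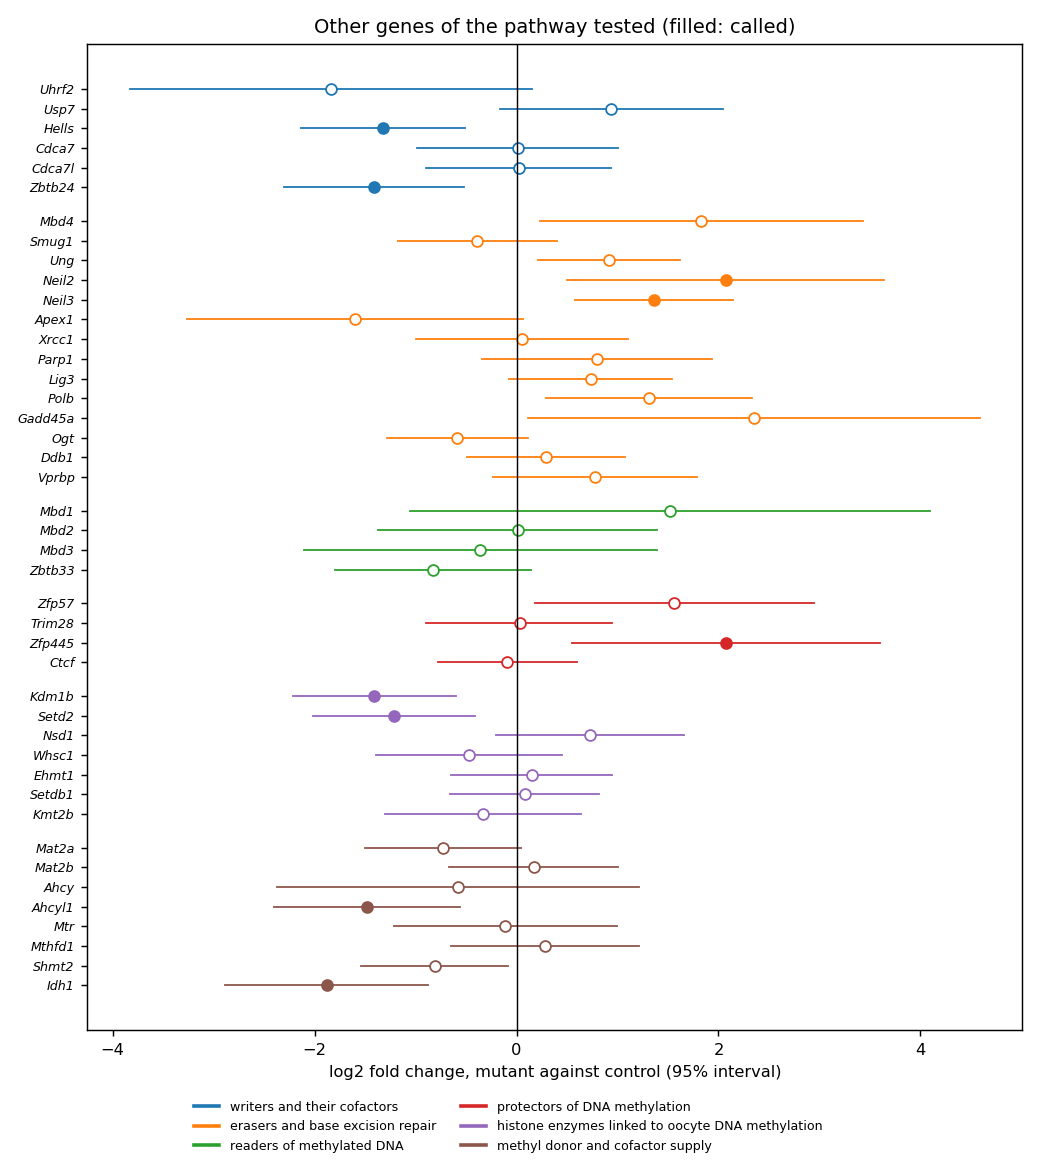
Log2 fold change between mutant and control oocytes (horizontal axis) with 95% intervals for the 43 further genes tested, coloured by list, with filled points for the 9 called ones. Filled points lie to the left for Idh1 (-1.88), Ahcyl1 (-1.48), Kdm1b (-1.41), Zbtb24 (-1.41), Hells (-1.32) and Setd2 (-1.21), and to the right for Neil2 (2.07), Zfp445 (2.07) and Neil3 (1.36).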

How the data were processed

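RNA from single oocytes was amplified as poly(A)-primed cDNA reaching up to 3 kb from the 3′ end and sequenced as single 49-base reads. The authors filtered the reads, aligned them to mm10 with TopHat2 2.0.6, kept unique best alignments and deposited raw counts per RefSeq gene made with HTSeq. The submitters' processing notes give HTSeq 0.5.3p9. The strand setting is not given in the sources used here.

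Counts of libraries that share an oocyte name were summed, a reading that the labels do not settle. Of 15432 genes with a count, the top 60% by total count (9198) were tested in R 4.3.3 with edgeR 4.0.16 (TMM, glmQLFit, glmQLFTest, genotype as the one term, Benjamini-Hochberg over all genes tested). The TMM factor of C3 was 0.651, those of mutants ran from 0.779 to 0.952 and those of the wt/wt group from 1.30 to 1.37. Log2 CPM used a prior count of 2, and ratios a pseudocount of 0.5 counts. A standard error is the fold change over the square root of F. Oocyte totals of 1375187 to 6928548 counts limit the precision, and reads carry no molecular identifiers. The 10 genes, the lists and the rule for named genes (each member, Kdm1a, Kdm1b, Setd2, the called genes of the lists and the 3 genes most like each called member) were chosen with earlier results of these data known. Lengths and shared 49-base stretches came from GENCODE annotation of GRCm38, matched by name for 94.9% of genes, and promoters from RefSeq on GRCm38.p6, found for 9 of the 10 genes. The procedure was tested on simulated data. Alternatives were DESeq2 1.42.0, RLE factors, library totals, no filter, filterByExpr, other thresholds, other treatments of the shared names, wt/wt or f/f oocytes alone as control, counts thinned to 1375187, GC and length trends removed, and each oocyte left out. Leaving out C3 together with wt5, and levels of single oocytes under library totals and RLE, were added after the data were seen. Two-cell embryos were not analysed here.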

Additional observations from a re-analysis of the deposited data

Results flagged for a closer look

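In 26 sets of 4 or 5 oocytes (the wt/wt, control and mutant values of single genes), 7 held an oocyte whose gap to its nearest neighbour, as a share of the whole range, was above Dixon's critical value, where chance gives about 1.3. The f/f oocyte C3 stood above the other controls in Dnmt1, with 2030 CPM against 619 in the next (gap share 0.762), in Dppa3, with 5560 against 1150 (0.936), and in Tet2, with a single count against 0 in the rest (1). With every other control at 0, the share for Tet2 could only be 1. The wt/wt oocyte wt5 stood above the others in Dnmt3l, with 84.3 CPM against 28.7, among the wt/wt oocytes (0.856) and among all controls (0.856). These sets share oocytes, so the 7 are not independent. In Dnmt3a the oocyte wt3 was lowest of the wt/wt oocytes at 8.63 CPM, the next being 16.4 (0.909), and in Dppa3 wt4 was highest at 1150 CPM, the next being 895 (0.841).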

How the results depend on the processing

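Dnmt1 stayed called in 22 of 23 alternatives, Dppa3 and Tet3 in 21 and Dnmt3l in 17, and Uhrf1 was called in 6, DESeq2 among them (1.22, adjusted p = 0.039). With the f/f oocyte alone as control, edgeR called 0 of the 10 genes and 0 of the wider list (4 of each at an unadjusted p under 0.05, and Tet3 and Kdm1b by DESeq2), and Uhrf1 was at -0.01. An unadjusted p under 0.05 gave 15 wider genes (3625 of all genes). Leaving out each oocyte in turn gave 4 to 12 wider genes, lowest without wt4 and highest without C3, where 18.7% and 31.5% of all genes were called, and a range of 1.73 to 2.31 for the Dnmt3l to Dnmt3a ratio, which was 1.73 with the wt/wt oocytes alone. Dnmt3b turned to -0.21 under library totals and ranged from -0.02 to 0.71 over single oocytes left out. Without C3 and wt5, Dnmt3a was 0.04 and Dnmt3b -0.17, with 5 members called (Uhrf1 added) and 31.1% of all genes. The cause of these changes was not tested. The description numbers were tried as a replicate block with every library as its own sample. This gave 2 members (Dnmt1 and Dppa3), 2 wider genes (Idh1 and Zfp445), 966 genes in all and 0.20 for Dnmt3a, and Dnmt3l and Tet3 were not called at adjusted p of 0.126 and 0.2 in edgeR. The deviations of same-numbered wt/wt and mutant libraries correlated at 0.0751, 0.0984 and -0.0902 for the numbers 3, 4 and 5. Only number 4 correlated best with its own number. Numbers 4 and 5 both fall on libraries of D3, and so few pairs cannot show whether a number marks a batch. Low counts limit Tet1 (at most 6 outside C3), Tet2 and Tdg, and 5 oocytes a side, with 1 f/f oocyte, limit the rest.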

Other observations

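The 2 libraries of a shared oocyte name differed in the same direction for some members. Relative to the other library of its oocyte, and over library totals with a pseudocount of 0.5 counts, the library with the suffix DNA had a log2 ratio of 1.47, 0.75, 0.48 and 0.34 for Dnmt3a and of 0.64, 0.33, 0.41 and 0.65 for Dnmt3b in C3, D3, D4 and D7. For Uhrf1 the values were -0.57, -0.54, -0.50 and -0.25, and for Dppa3 -0.48, -0.37, -0.25 and -0.29. Dnmt1 (0.26, -0.14, -0.27 and -0.12) and Dnmt3l (1.10, 0.77, -0.43 and -0.04) went both ways, and Tet3 gave 0.01, 0.36, 0.29 and 0.37. What the suffix stands for is not given in the sources used here.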
